A study of Rattus norvegicus with 172 samples.

Results

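The liver response to furan at 0.5 mg/kg body weight per day was set against the response to 3-methylfuran at 1.0 mg/kg body weight per day, each measured against the control rats of its own experiment. The quantity of interest was the furan 0.5 effect minus the 3-methylfuran 1.0 effect, gene by gene. It rests on 31 of the 70 rats of the series: 7 rats at furan 0.5, 8 furan controls, 8 rats at 3-methylfuran 1.0 and 8 3-methylfuran controls. The rats were chosen by the dose in the labels and by the animal number in the sample title, which ties each control to its experiment. The other 39 rats, at furan 0.03, 0.12 and 2.0 and 3-methylfuran 0.02 and 0.075, entered the fit only to estimate the spread and are shown where a dose order helps.

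All rats were male Fischer 344 rats exposed for 90 days, and the labels give no genetic change in any group. Poly(A) RNA libraries were made from total RNA of frozen liver. The furan libraries and the 3-methylfuran libraries were prepared with different stranded mRNA kits, so kit and compound changed together. Each effect was therefore taken within 1 experiment, and levels are not compared across the experiments. The doses differ as well: the 3-methylfuran dose was 2 times the furan dose by mass and 1.66 times by amount of substance (12.2 against 7.34 µmol/kg body weight per day). A difference between the effects is a difference between these doses of these compounds.

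Furan is a volatile ring of carbon and oxygen that forms when food is heated, and 3-methylfuran is the same ring with a methyl group. In rat liver furan is opened by the cytochrome P450 Cyp2e1 to a reactive dialdehyde that binds proteins and glutathione. Liver cells answer such stress through the transcription factor NRF2, which raises conjugating enzymes and exporters, through the unfolded protein response of the endoplasmic reticulum, and through division that replaces lost cells.

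Total counts per rat were 14.1 to 19.6 M reads at furan 0.5, 14 to 18.4 M in furan controls, 12.8 to 24.3 M at 3-methylfuran 1.0 and 11.1 to 18.9 M in 3-methylfuran controls. Of 10 hepatocyte markers 9 passed the filter on low counts, led by albumin (Alb) at a mean of 127602 CPM (read counts scaled to the size of the library) and transferrin (Tf) at 41862 CPM over the 4 groups. None of the 9 passed the test at furan 0.5, 1 rose and 6 fell at 3-methylfuran 1.0, and their median effects were -0.08 and -0.21 on the log2 scale. At an unadjusted p under 0.05 the furan count was 1 higher and 1 lower, and DESeq2 and limma-voom also called 0. In bulk liver, fewer cells of a type and less RNA per cell cannot be told apart.

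At these doses the 3-methylfuran response was much the broader, and for most of the genes that separated the compounds it was 3-methylfuran that had moved them. Many genes of the NRF2 program, DNA replication and mitosis and the epithelial gene Epcam rose more at 3-methylfuran 1.0 than at furan 0.5, and many P450 genes and genes of bile acid handling, glucose metabolism and plasma proteins fell more. A smaller set, with Zbtb16, Lpin1, Klf13 and Edem1 in it, went up at furan 0.5 and down at 3-methylfuran 1.0. The edgeR quasi-likelihood test with Benjamini-Hochberg adjustment was run over 11885 genes, and calls are those with an adjusted p under 0.05. The furan 0.5 effect was called for 599 genes (5.04% of those tested), 301 higher (2.53%) and 298 lower (2.51%). The 3-methylfuran 1.0 effect was called for 5225 genes (44%), 2517 higher (21.2%) and 2708 lower (22.8%).

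The difference between the effects was called for 2733 genes (23%), 1490 with the furan effect above the 3-methylfuran effect (12.5%) and 1243 with it below (10.5%). Of these, 1134 differed by at least 1.5-fold. The 3-methylfuran effect was the larger in size for 2391 of the 2733 genes (87.5%) and the furan effect for 342. For 2274 (83.2%) only the 3-methylfuran effect was called, for 136 (5.0%) only the furan effect, for 83 (3.0%) both in opposite directions, for 61 (2.2%) both in the same direction and for 179 (6.5%) neither.

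The median standard error of an effect was 0.10 on the log2 scale in either arm and 0.14 for the difference. The SD of the effects over genes was 0.26 for furan 0.5 and 0.50 for 3-methylfuran 1.0. Across the 11885 genes the effects had a Pearson r of 0.33 and a Spearman rho of 0.30, a description over genes, which share the same 31 rats and are not independent. For 6666 genes (56.1%) the 95% interval of the difference lay inside 1.5-fold either way.

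**Figure D1:**
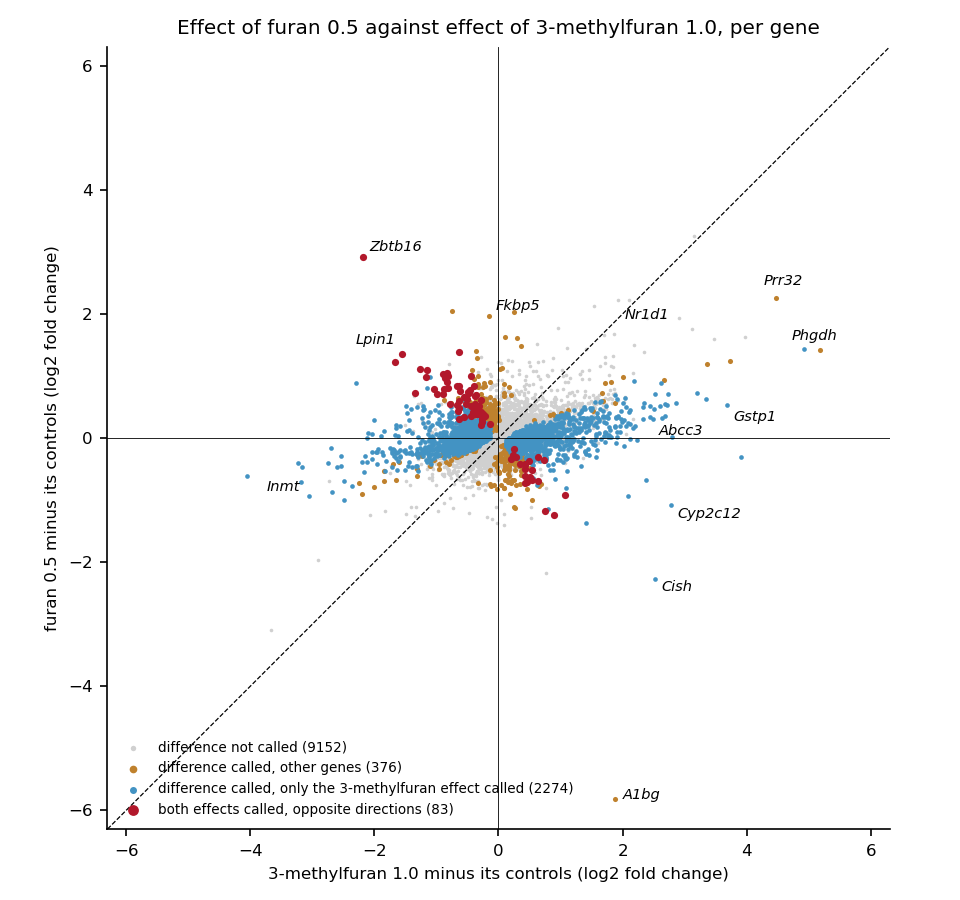
Effect of furan 0.5 (vertical axis) against effect of 3-methylfuran 1.0 (horizontal axis), each over its own controls, as log2 fold changes. Each point is 1 of 11885 genes and the dashed line marks equal effects. The 2274 blue genes lie along the horizontal axis, and the 83 red genes, called in opposite directions, lie in the upper left and lower right.

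Scaling mattered for the balance of directions. With libraries scaled by their totals in place of TMM, the median difference over all genes moved to -0.17 from 0.01 on the log2 scale and the median 3-methylfuran effect to 0.25, and the 3609 genes then called for the difference split into 634 higher and 2975 lower. With the size factors of DESeq2 the split was 1416 higher and 1308 lower. Gene groups are therefore best read beside the medians over all genes, which were 0.00 for furan 0.5, -0.00 for 3-methylfuran 1.0 and 0.01 for the difference in the TMM scaling used below.

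Most tested genes of the NRF2 program rose at 3-methylfuran 1.0, and only Nfe2l2 among them was called at furan 0.5. Of 23 members tested of 32 listed, 11 had a lower furan effect and 0 a higher one by edgeR, with a median difference of -0.46. At an unadjusted p under 0.05 these counts were 13 and 1, and DESeq2 and limma-voom each gave 12 and 0. The 3-methylfuran effect was called higher for 14 and lower for 2 (median 0.48), the furan 0.5 effect higher for 0 and lower for 1 (median 0.00). For that furan count of 0, 2 members were higher at an unadjusted p under 0.05 and 0 by DESeq2 or limma-voom.

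Gstp1, a glutathione transferase that is a classic marker of altered rat hepatocytes, ran from 10.7 through a median of 13.9 to 30.7 CPM at furan 0.5, and from 7.05 through 13.5 to 16.7 CPM in furan controls. At 3-methylfuran 1.0 it ran from 23.5 through 61.2 to 670 CPM, and in its controls from 7.13 through 7.35 to 22.9 CPM. Every 3-methylfuran rat lay above every control, while the furan 0.5 rats overlapped theirs. The log2 effects were 0.53 for furan 0.5 (1.45-fold) and 3.68 for 3-methylfuran 1.0 (12.8-fold), and the difference was -3.15 ± 0.63 (SE, edgeR adjusted p = 0.000152). Without the rat at 670 CPM the 3-methylfuran effect was 2.51 and the difference -1.98 (adjusted p = 0.00145).

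Abcc3, an exporter of conjugates in the hepatocyte's basolateral membrane, had 2.76, 3.87 and 6.19 CPM as lowest, median and highest value at furan 0.5, against 1.86, 3.198 and 4.52 CPM in furan controls. The same values were 17.6, 27.5 and 72.5 CPM at 3-methylfuran 1.0, against 2.35, 3.23 and 11.7 CPM in 3-methylfuran controls. The 3-methylfuran groups did not overlap and the furan groups did. The difference of the effects was -2.33 ± 0.49 (edgeR adjusted p = 0.000278).

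A further 4 enzymes also rose more at 3-methylfuran 1.0, though for Akr7a3 and Gclc the 3-methylfuran rats overlapped their controls. Ephx1, the microsomal epoxide hydrolase, had a log2 effect of -0.05 at furan 0.5 and 1.09 at 3-methylfuran 1.0. The aldehyde reductase Akr7a3 had 0.47 and 2.50, the retinal dehydrogenase Aldh1a1 0.17 and 1.32, and Gclc, the catalytic subunit of glutathione synthesis, -0.33 and 0.58, in the same order. All 4 differences were called and their furan 0.5 effects were not. The wider families of conjugating enzymes had calls in both directions, for the glutathione S-transferases at shares near those of all genes. Of all genes 21.2% rose and 22.8% fell at 3-methylfuran 1.0. The difference was called higher for 12.5% of all genes and lower for 10.5%. Of 19 glutathione S-transferases tested, 4 rose and 5 fell at 3-methylfuran 1.0 (median -0.04), and the difference was called higher for 2 and lower for 3 (median -0.10). At furan 0.5 edgeR, DESeq2 and limma-voom called 0 of them (median -0.12, 3 lower at an unadjusted p under 0.05). Gstm1 had log2 effects of -0.02 at furan 0.5 and 0.72 at 3-methylfuran 1.0, and Gstm2 had -0.18 and -0.87, with called differences of -0.74 and 0.69. Of 18 genes of glucuronidation, sulfation and related conjugation, 6 rose and 4 fell at 3-methylfuran 1.0 and 2 rose at furan 0.5. Their difference was called higher for 4 and lower for 2 (median -0.12).

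Nfe2l2, which encodes NRF2 itself, was called in both arms and in opposite directions. It ran from 63.3 through 75.1 to 97.2 CPM at furan 0.5, against 87.3 through 107 to 137.1 CPM in furan controls, and from 138 through 179 to 226 CPM at 3-methylfuran 1.0, against 107 through 128 to 170.2 CPM in 3-methylfuran controls. All 7 furan 0.5 rats were below the median of their controls and all 8 3-methylfuran rats above theirs, with some overlap in each arm. The log2 effects were -0.50 and 0.43, and the difference -0.93 ± 0.16 (edgeR adjusted p = 1.99e-05). Aldh1a7 and Gpx2, among the most raised members at 3-methylfuran 1.0 (3.97 and 3.12), had wide errors at furan 0.5 (1.62 ± 0.66 and 1.76 ± 0.71), and their differences did not pass the test (edgeR adjusted p = 0.0513 and 0.315).

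Phgdh, the first enzyme of serine synthesis, had 1.86, 4.51 and 11.9 CPM as lowest, median and highest value at furan 0.5, against 0.321, 0.600 and 6.92 CPM in furan controls. In rats at 3-methylfuran 1.0 the values were 15.4, 35.7 and 51.96 CPM, against 0.140, 1.01 and 2.02 CPM in 3-methylfuran controls. All 7 furan rats were above the median of their controls although the ranges overlapped. The furan effect of 1.43 ± 0.61 was not called (edgeR adjusted p = 0.172), the 3-methylfuran effect was 4.93 (30.4-fold), and the difference was -3.50 ± 0.91 (adjusted p = 0.00323). Without furan control rat 3 the furan effect was called (2.14, adjusted p = 0.0498) and the difference was -2.78. The mitochondrial folate enzyme Mthfd1l went the same way, with log2 effects of 0.55 at furan 0.5 and 2.68 at 3-methylfuran 1.0. The wider list of serine and one-carbon enzymes was mixed. Of 27 tested, 6 had a higher and 3 a lower furan effect (12.5% and 10.5% of all genes), with a median difference of 0.03. Those higher included Sdsl, Mat1a, Ahcy, Cbs and Dmgdh, enzymes of methionine, serine and choline metabolism, and these 5 fell at 3-methylfuran 1.0.

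**Figure D2:**
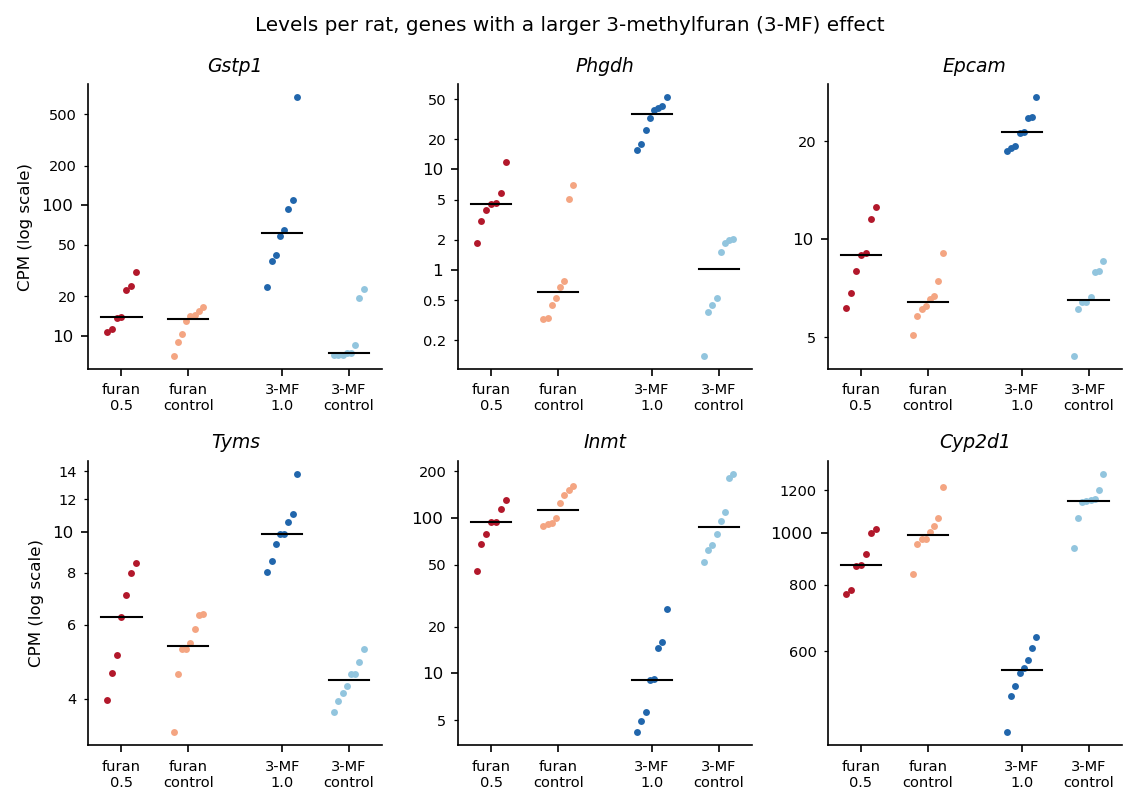
Level per rat (CPM, log scale) of 6 genes in the rats at furan 0.5, furan controls, rats at 3-methylfuran 1.0 and 3-methylfuran controls; the line is the group's median. The 3-methylfuran rats stand clear of their controls in every panel (Gstp1 23.5 to 670 CPM, against 7.13 to 22.9), while the furan 0.5 rats overlap theirs.

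Cell division followed the same split. Of 30 DNA replication genes tested, 21 were called higher at 3-methylfuran 1.0 (median 0.60) and edgeR called 0 at furan 0.5 (median 0.14). At an unadjusted p under 0.05 the furan counts were 4 higher and 1 lower, DESeq2 called 0 and limma-voom 1 higher. The difference was called lower for 14 and higher for 1, with a median of -0.53. Of 33 mitosis genes, 31 were called higher at 3-methylfuran 1.0 (median 1.54) and 0 at furan 0.5 by edgeR, DESeq2 and limma-voom (median 0.38, 4 higher at an unadjusted p under 0.05).

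The median difference of the mitosis list was -1.13, and 11 of its 33 members were called lower. At an unadjusted p under 0.05, 25 members were lower. Against the lowest dose group of each experiment in place of the controls, a baseline added after the data were seen, 3 members of each list were called lower, with medians of -0.55 for mitosis and -0.42 for replication.

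Tyms, which makes the thymidylate for DNA synthesis, had 3.98, 6.26 and 8.46 CPM as lowest, median and highest value at furan 0.5, against 3.33, 5.35 and 6.37 CPM in furan controls. At 3-methylfuran 1.0 the values were 8.01, 9.91 and 13.8 CPM, against 3.72, 4.43 and 5.25 CPM in 3-methylfuran controls. The 3-methylfuran groups were apart and the furan groups overlapped, and the difference was -0.97 ± 0.20 (edgeR adjusted p = 0.000142). Top2a, which untangles replicated chromosomes, had log2 effects of 0.17 and 1.88 (difference -1.70, called). The replicative helicase subunit Mcm3 had 0.27 and 1.70 (difference -1.43, called). The proliferation marker Mki67 had 0.63 and 1.83, and its difference of -1.20, with a 95% interval of -2.22 to -0.19, was not called (edgeR adjusted p = 0.0772).

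Of 13 cholangiocyte markers tested of 22 listed, which mark the epithelium of the bile duct, 6 rose and 0 fell at 3-methylfuran 1.0 by edgeR (1 lower at an unadjusted p under 0.05, 1 by DESeq2 and 0 by limma-voom). At furan 0.5 edgeR called 0 higher and 3 lower, Onecut2 and Slc4a2 among the 3, while 6 were higher at an unadjusted p under 0.05 and 0 by DESeq2 or limma-voom. The list median was 0.32 at furan 0.5 and 0.16 at 3-methylfuran 1.0, so the medians do not order the arms as the calls do. Epcam, an adhesion molecule of bile duct and progenitor-like cells, had 6.15, 8.93 and 12.6 CPM as lowest, median and highest value at furan 0.5, against 5.07, 6.39 and 9.05 CPM in furan controls. The corresponding 3-methylfuran 1.0 values were 18.6, 21.3 and 27.3 CPM, against 4.39, 6.51 and 8.56 CPM in 3-methylfuran controls. The 3-methylfuran groups were apart by a wide gap, and the difference was -1.24 ± 0.22 (edgeR adjusted p = 2.57e-05).

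Of the 13 markers, 7 had a lower furan effect and 0 a higher one by edgeR, DESeq2 and limma-voom (1 higher at an unadjusted p under 0.05), with a median difference of -0.38. The 7 included Epcam, Cldn7, Anxa4, Krt8 and Krt18, which rose at 3-methylfuran 1.0, and Onecut2, which fell at furan 0.5. Krt18, a keratin that hepatocytes also make, had log2 effects of 0.32 and 1.35. The defining keratins Krt7 and Krt19 were not called in any of the 3 contrasts, with log2 differences of 2.04 and 0.91. The part of cell composition in these differences was not tested.

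The genes that fell at 3-methylfuran 1.0 and were not called at furan 0.5 included many of specialised hepatocyte work. Of 26 P450 genes of xenobiotic metabolism tested, 16 were called lower and 5 higher at 3-methylfuran 1.0 (median -0.41). At furan 0.5 they were 0 lower and 1 higher by edgeR (median -0.15). For that 0, 5 were lower at an unadjusted p under 0.05, 1 by DESeq2 and 0 by limma-voom. The difference was called higher for 9 and lower for 2, with a median of 0.36, and for 7 and 5 with libraries scaled by their totals (median 0.17).

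Inmt, an amine N-methyltransferase of hepatocytes, had 45.8, 93.6 and 131 CPM as lowest, median and highest value at furan 0.5, against 88.9, 112 and 161 CPM in furan controls. Rats at 3-methylfuran 1.0 had 4.19, 9.10 and 25.99 CPM, against 52.4, 87.3 and 192 CPM in 3-methylfuran controls. No 3-methylfuran rat reached the lowest control, while furan rats and controls overlapped. The log2 effects were -0.41 and -3.23 (0.753 and 0.106 times the controls), and the difference 2.82 ± 0.40 (edgeR adjusted p = 5.28e-07).

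Cyp2d1, a P450 of basic drugs, had 768, 872 and 1018 CPM at furan 0.5, against 836, 989 and 1219 CPM in furan controls. The 3-methylfuran 1.0 rats had 424, 553 and 639 CPM, against 936, 1148 and 1289 CPM in 3-methylfuran controls. The 3-methylfuran groups did not overlap, and the difference was 0.88 ± 0.12 (edgeR adjusted p = 2.07e-07). Cyp1a2 (log2 effects of -0.31 and -1.29), Cyp3a18 (-0.22 and -1.31) and the male-predominant steroid hydroxylase Cyp2c11 (-0.30 and -0.98) had called differences in the same direction. Cyp3a62 was called higher in both arms, at 0.73 for furan 0.5 and 1.67 for 3-methylfuran 1.0, and its difference of -0.94 was called. These are families of closely related genes, and how reads shared between copies were counted is not given in the sources used here.

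Cyp2e1, the enzyme that activates furan, had 2288, 3319 and 3810 CPM as lowest, median and highest value at furan 0.5, against 2366, 3065 and 4228 CPM in furan controls. It had 2758, 3166 and 3743 CPM at 3-methylfuran 1.0, against 1814, 2269 and 2842 CPM in 3-methylfuran controls. The groups overlapped in both arms. The 3-methylfuran effect of 0.47 was called and the furan effect of 0.04 was not. The difference of -0.44 had a 95% interval of -0.86 to -0.01 and was not called (edgeR adjusted p = 0.137).

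Bile acid synthesis and transport showed 13 members with a higher and 2 with a lower furan effect among 28 tested (median difference 0.27, and 6 and 4 with a median of 0.09 under scaling by totals). The 3-methylfuran effect was called lower for 17 and higher for 6, the furan 0.5 effect lower for 1 and higher for 2. Slc27a5, the bile acid CoA ligase, had 586.6, 739 and 1023 CPM as lowest, median and highest value at furan 0.5, against 643, 880.1 and 1002 CPM in furan controls. In rats at 3-methylfuran 1.0 the values were 342, 579.9 and 704 CPM, against 950, 1245 and 1442 CPM in 3-methylfuran controls. The 3-methylfuran ranges were apart and the furan ranges overlapped (difference 0.98 ± 0.18, edgeR adjusted p = 2.78e-05). The uptake carriers Slc10a1, Slco1a1 and Slco1a4 and the canalicular exporter Abcb11 also had called positive differences (0.37, 0.70, 0.63 and 0.45). Abcc2, the canalicular exporter of conjugates, ran the other way, with effects of -0.05 at furan 0.5 and 0.79 at 3-methylfuran 1.0. Cyp7a1, the rate-limiting enzyme of bile acid synthesis, had effects of 0.52 and 0.21, neither called.

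Among 24 genes of glucose metabolism the difference was called higher for 9 and lower for 1 (median 0.34, and 8 and 4 under scaling by totals). Pck1, the key enzyme of glucose production, had 2774, 3443 and 4783 CPM as lowest, median and highest value at furan 0.5, against 2418, 3148 and 4285 CPM in furan controls. At 3-methylfuran 1.0 the values were 798, 1252 and 1675 CPM, against 1448, 2099 and 3238 CPM in 3-methylfuran controls. The groups overlapped in both arms, but all 8 rats at 3-methylfuran 1.0 were below the median of their controls (difference 1.12 ± 0.26, edgeR adjusted p = 0.000816). Ppp1r3b, a glycogen-targeting subunit of protein phosphatase, had log2 effects of -0.22 at furan 0.5 and -1.14 at 3-methylfuran 1.0. Its difference of 0.92 was called.

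Plasma protein genes moved by smaller steps. Of 18 acute phase genes, 17 fell at 3-methylfuran 1.0 (median -0.34), although under scaling by library totals only 6 did. EdgeR called 0 of the 18 at furan 0.5 (median -0.09, 3 lower at an unadjusted p under 0.05), and DESeq2 and limma-voom also called 0. The difference was called for 6, all with the furan effect above the 3-methylfuran effect: Orm1, Cp, Saa4, Itih3, Itih4 and Apcs. Under scaling by totals it was called for 3. Its median was then 0.02 in place of 0.20, beside -0.17 in place of 0.01 over all genes. The kallikrein inhibitor Serpina4 was called lower in both arms, with 869, 963 and 1043 CPM at furan 0.5 against 1022, 1188 and 1258 CPM in furan controls, and 451, 588 and 768 CPM at 3-methylfuran 1.0 against 1318, 1394 and 1804 CPM in 3-methylfuran controls. The groups overlapped only in the furan arm, and the log2 effects were -0.29 and -1.24 (difference 0.95 ± 0.11, edgeR adjusted p = 1.55e-08). Among 30 PPAR alpha targets, which burn fatty acids, 9 differences were called higher by edgeR and 0 lower (1 lower at an unadjusted p under 0.05, 0 by DESeq2 or limma-voom), with a median of 0.25 that came to 0.07 under scaling by totals. Among 12 genes of periportal hepatocytes 5 were called higher, namely the urea cycle genes Ass1 and Arg1, Uroc1, Slc7a2 and Apof.

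**Figure D3:**
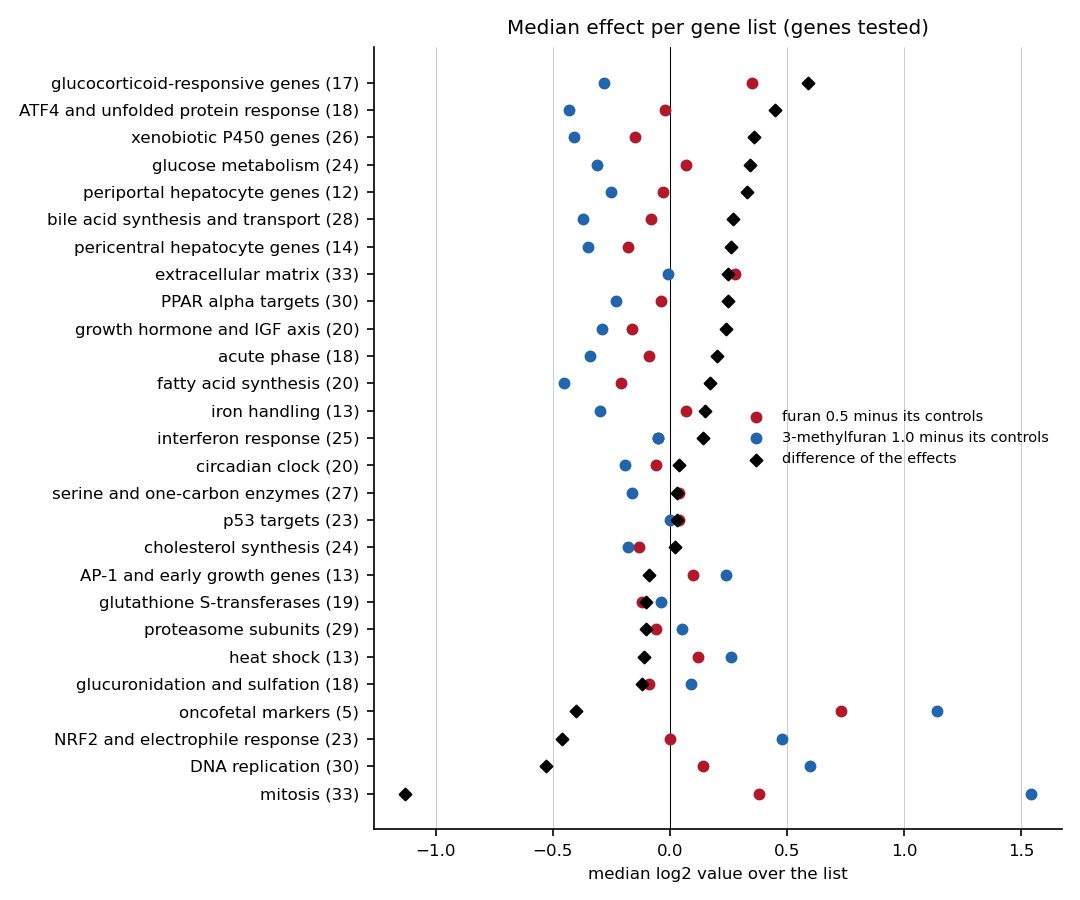
Median log2 value of 27 gene lists for the furan 0.5 effect (red), the 3-methylfuran 1.0 effect (blue) and their difference (black diamonds), with the number of members tested in brackets. The mitosis list stands lowest for the difference (-1.13) and the glucocorticoid-responsive list highest (0.59), where red and blue lie on opposite sides of 0. The lists were written with earlier results of these data known.

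Both effects were called for 344 genes. They went the same way for 261 (91 higher, 170 lower), which is 43.6% of the furan 0.5 calls and 5.0% of the 3-methylfuran 1.0 calls. They went opposite ways for 83, which is 13.9% of the furan calls and 1.6% of the 3-methylfuran calls: 62 were higher at furan 0.5 and lower at 3-methylfuran 1.0, and 21 were lower at furan 0.5 and higher at 3-methylfuran 1.0. All 83 were among the genes called for the difference.

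Genes known to respond to glucocorticoids were the list with the highest median difference, 0.59 over 17 members tested. The lists were written with earlier results of these data known, so this rank is a description and no test. Of these, 6 rose at furan 0.5 (Fkbp5, Zbtb16, Klf13, Mt1, Cdkn1a and Lpin1) and 7 fell at 3-methylfuran 1.0 (Zbtb16, Tsc22d3, Klf13, Dusp1, Lpin1, Angptl4 and Sult1e1). The difference was called higher for 6 and lower for 0 by edgeR, with 1 lower at an unadjusted p under 0.05, 1 by DESeq2 and 0 by limma-voom. Cdkn1a was a borderline call at furan 0.5 (0.63, edgeR adjusted p = 0.0400) that was lost without 1 rat in 8 of 31 repeats.

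Zbtb16, a zinc finger repressor that glucocorticoids induce in many tissues, had 17.2, 46.4 and 81.8 CPM as lowest, median and highest value at furan 0.5, against 4.09, 5.57 and 11.5 CPM in furan controls. The corresponding 3-methylfuran 1.0 values were 3.08, 4.28 and 6.60 CPM, against 3.14, 21.7 and 44.3 CPM in 3-methylfuran controls. The furan groups did not overlap, while the lowest 3-methylfuran controls lay within the treated range. The log2 effects were 2.92 (7.57-fold) and -2.19 (0.220-fold), and the difference of 5.11 ± 0.75 (edgeR adjusted p = 7.54e-07) was the largest positive one of all.

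Lpin1, a phosphatidate phosphatase and coactivator of fasting metabolism, had 178, 299.5 and 759 CPM at furan 0.5, against 62.7, 109.9 and 269 CPM in furan controls. Rats at 3-methylfuran 1.0 had 37.9, 47.1 and 62.1 CPM, against 88.0, 129 and 209.9 CPM in 3-methylfuran controls. The furan groups overlapped and the 3-methylfuran groups did not. The log2 effects were 1.36 and -1.55, and the difference 2.91 ± 0.40 (edgeR adjusted p = 2.18e-07). Klf13, a Krüppel-like factor, had log2 effects of 0.98 and -1.16, with all 7 furan rats above and all 8 3-methylfuran rats below the median of their controls.

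The list of ATF4 targets and unfolded protein response genes was split. Its chaperones and disposal factors of the endoplasmic reticulum mostly fell at 3-methylfuran 1.0, and its ATF4 targets did not share one direction. Of 18 members tested, 13 fell and 1 rose at 3-methylfuran 1.0 (median -0.43), and 3 rose at furan 0.5 with a list median of -0.02. The difference was called higher for 10 and lower for 0 by edgeR (1 lower at an unadjusted p under 0.05, 0 by DESeq2 or limma-voom), with a median of 0.45. Under scaling by library totals it was called for 7 and 1, with a median of 0.27.

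Edem1, which marks misfolded glycoproteins for disposal, had 369.6, 538 and 886 CPM as lowest, median and highest value at furan 0.5, against 232, 283 and 408 CPM in furan controls. The 3-methylfuran 1.0 rats had 138, 162 and 196 CPM, against 208, 299 and 334 CPM in 3-methylfuran controls. The 3-methylfuran groups did not overlap, and in the furan arm only the ends of the ranges did. The difference was 1.87 ± 0.26 (edgeR adjusted p = 2.18e-07). Hspa5, the chaperone BiP and main target of the response, had 580, 853 and 1203 CPM at furan 0.5, against 600.5, 797 and 953 CPM in furan controls, and 615, 709 and 819 CPM at 3-methylfuran 1.0, against 828.6, 968 and 1242 CPM in 3-methylfuran controls. Its furan effect of 0.09 was not called, its 3-methylfuran effect of -0.46 was, and the difference was 0.55 ± 0.13 (adjusted p = 0.00113).

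Of the ATF4 side, Asns, which makes asparagine, rose at 3-methylfuran 1.0 (1.52) with an effect of 0.17 at furan 0.5, and its difference of -1.35 was not called (edgeR adjusted p = 0.160). The glutathione-degrading enzyme Chac1 had effects of -1.22 and 0.09 and a difference of -1.31 that was not called (adjusted p = 0.108). Atf4 itself, Trib3 and Ppp1r15a were not called in either arm or for the difference, with differences of -0.13, -0.01 and -0.27.

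Among the other members, the BiP cochaperone Dnajb9 rose at furan 0.5 (0.74) and fell at 3-methylfuran 1.0 (-0.50). Creld2, a secreted stress protein, did likewise (0.49 and -0.64), though its furan call was lost without 1 rat in 8 of 31 repeats. Hyou1, Pdia4 and Sdf2l1, which fold proteins in the endoplasmic reticulum, fell only at 3-methylfuran 1.0 (-0.57, -0.52 and -1.10) and had called differences of 0.89, 0.55 and 0.93. Ficd, which modifies BiP and was not on the list, had effects of 1.03 and -0.89. Xbp1, the factor that drives much of the response, had effects of -0.48 and -0.40 and a difference of -0.08 with a 95% interval of -0.55 to 0.40. The call for Ddit3 stood at the threshold (0.38, edgeR adjusted p = 0.0498) and was lost under 8 other settings.

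A minority of the list's promoters held a sequence element tied to this stress response. The list was made of genes of that response, so its share against all genes is no independent support. The endoplasmic reticulum stress element is CCAAT, any 9 bases, then CCACG, and it was searched on both strands of the 300 bases from 250 before to 50 after each gene's start in RefSeq GRCr8. It was found in 22 of 33469 promoters (0.0657%) and in 14 of the 8758 tested genes with a promoter matched by symbol (0.16%). All 18 tested members of the list were matched and 5 held the element, while Edem1, Dnajb9, Hyou1, Pdia4, Sdf2l1 and Ddit3 did not hold it in this window. Of the 10 with a called difference 4 did, and of the 8 others only Xbp1 did, with the element 65 bases before its start. A match describes the letters and is not evidence of binding. Whether the element goes with a called difference was not tested. The 4 promoters that hold it among genes with a called difference are printed as examples. Both ends of the element are in capitals. In Hspa5 (chr3:38452766-38453065, plus strand) it begins 43 bases before the start and in Dnajc3 (chr15:102432417-102432716, plus strand) 133 bases before it. In Creld2 (chr7:121789134-121789433, plus strand) and Ero1b (chr17:92941432-92941731, plus strand) it lies on the opposite strand, 145 and 224 bases before the start, and so reads CGTGG, 9 bases, ATTGG.
Hspa5: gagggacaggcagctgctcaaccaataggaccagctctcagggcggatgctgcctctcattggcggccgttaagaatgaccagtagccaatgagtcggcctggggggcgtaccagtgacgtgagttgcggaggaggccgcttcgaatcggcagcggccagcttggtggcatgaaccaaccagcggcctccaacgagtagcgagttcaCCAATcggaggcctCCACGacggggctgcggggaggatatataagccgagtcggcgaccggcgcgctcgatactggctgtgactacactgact
Dnajc3: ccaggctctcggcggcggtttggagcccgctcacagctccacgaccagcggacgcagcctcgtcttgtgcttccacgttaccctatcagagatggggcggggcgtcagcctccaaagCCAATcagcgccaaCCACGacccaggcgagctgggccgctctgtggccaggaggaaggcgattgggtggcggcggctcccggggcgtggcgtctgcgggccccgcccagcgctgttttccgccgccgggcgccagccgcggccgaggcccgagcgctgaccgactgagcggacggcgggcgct
Creld2: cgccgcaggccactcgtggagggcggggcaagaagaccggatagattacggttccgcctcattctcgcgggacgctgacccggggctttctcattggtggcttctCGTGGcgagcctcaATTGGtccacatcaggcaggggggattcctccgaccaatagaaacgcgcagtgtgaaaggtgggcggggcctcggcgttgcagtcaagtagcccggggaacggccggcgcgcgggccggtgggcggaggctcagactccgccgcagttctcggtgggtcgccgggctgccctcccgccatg
Ero1b: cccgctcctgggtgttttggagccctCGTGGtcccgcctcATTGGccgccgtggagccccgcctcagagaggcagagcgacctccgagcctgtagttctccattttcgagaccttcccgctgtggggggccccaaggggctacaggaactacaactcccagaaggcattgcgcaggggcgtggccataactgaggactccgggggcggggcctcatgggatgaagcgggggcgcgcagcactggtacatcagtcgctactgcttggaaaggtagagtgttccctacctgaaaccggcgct
Beside these sequences, the log2 effects at 3-methylfuran 1.0 were -0.46 for Hspa5, -0.34 for Dnajc3, -0.64 for Creld2 and -0.39 for Ero1b. All 4 fell, and of the 4 only Creld2 was also called at furan 0.5.

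Some other genes called in opposite directions were regulators of liver metabolism. The genes given here were picked from the 83, of which only 13 were in a gene or marker list. Nr1i2, the xenobiotic receptor PXR, had 172, 198 and 227 CPM at furan 0.5, against 112, 132 and 155 CPM in furan controls, and 116, 134 and 137.3 CPM at 3-methylfuran 1.0, against 163, 181.4 and 229.5 CPM in 3-methylfuran controls. The groups did not overlap in either arm. Its effects were 0.54 and -0.53, and the difference 1.07 ± 0.13 (edgeR adjusted p = 1.55e-08).

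Il6r, the interleukin 6 receptor, had effects of 0.97 and -0.86. Pfkfb1, which sets fructose 2,6-bisphosphate in liver, had 0.91 and -0.82. Ppp1r3c, a glycogen-targeting phosphatase subunit, had 0.80 and -1.03, and the deubiquitinase Usp2 had 0.72 and -1.35. Ankrd33b, an ankyrin repeat gene, had 1.11 and -1.26. Nr0b2, the receptor SHP that represses bile acid synthesis, had 1.10 and -1.16, with a furan call (edgeR adjusted p = 0.0445) that was lost without 1 rat in 10 of 31 repeats.

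In the other direction the zinc finger gene Zfp608 had 5.20, 5.97 and 8.35 CPM as lowest, median and highest value at furan 0.5, against 9.75, 10.8 and 17.6 CPM in furan controls. In rats at 3-methylfuran 1.0 the values were 10.2, 13.2 and 17.3 CPM, against 5.12, 5.99 and 7.61 CPM in 3-methylfuran controls. Neither arm overlapped, and the difference was -2.0 ± 0.30 (edgeR adjusted p = 1.04e-06).

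**Figure D4:**
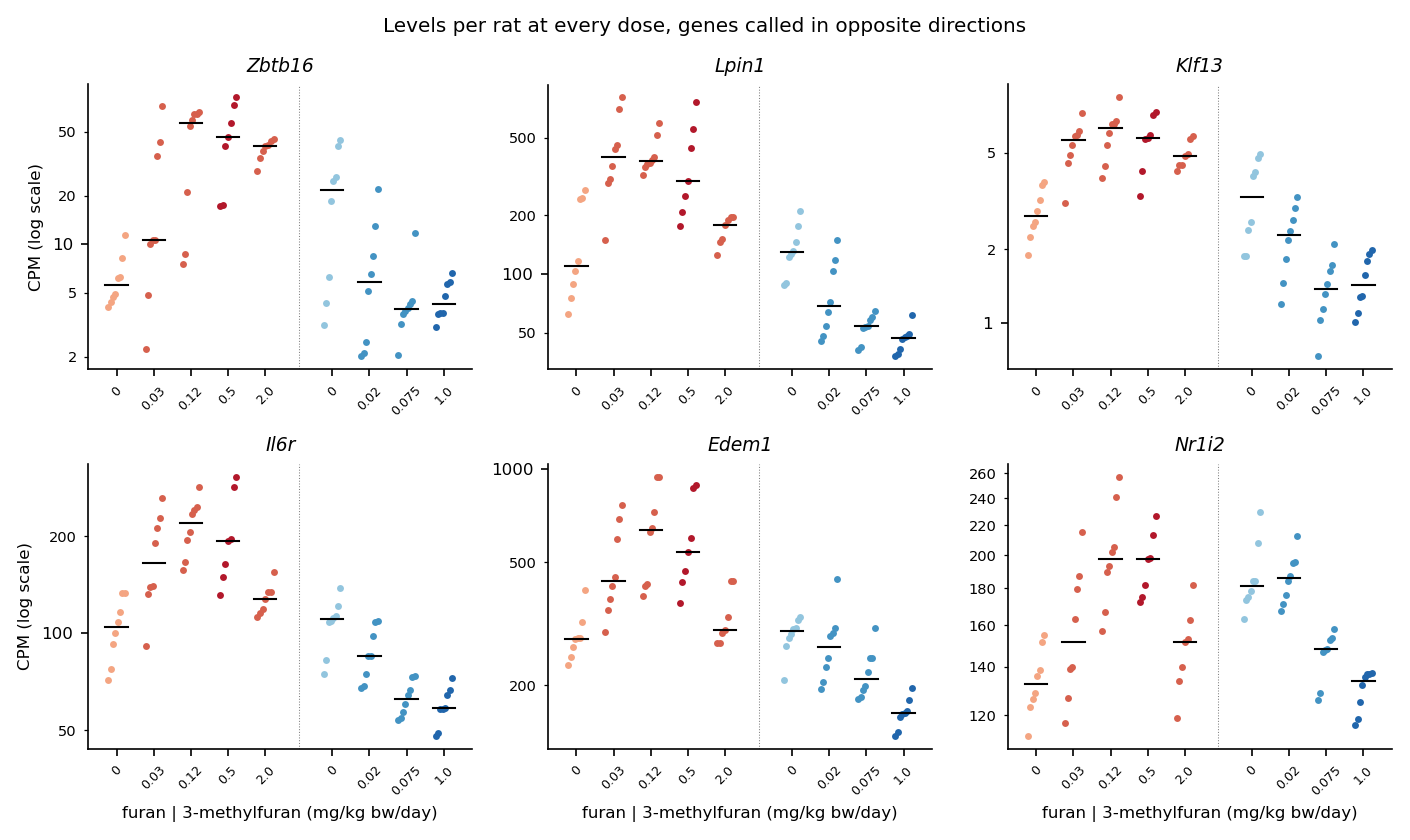
Level per rat (CPM, log scale) at every dose of furan (0 to 2.0 mg/kg body weight per day, left of the dotted line) and 3-methylfuran (0 to 1.0, right of it) for 6 genes called in opposite directions; the line is the group's median. In several panels the lowest doses already lie above the furan controls and below the 3-methylfuran controls (Lpin1 medians of 398 CPM at furan 0.03 and 68.3 CPM at 3-methylfuran 0.02). The furan levels do not keep rising with dose (Lpin1 median of 178 CPM at furan 2.0, against 109.9 CPM in furan controls). All dosed groups of an experiment share 1 control group.

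Part of this opposition was already present at the lowest doses. The group medians of Lpin1 were 109.9 CPM in furan controls and 398, 378, 299.5 and 178 CPM at furan 0.03, 0.12, 0.5 and 2.0. They were 129 CPM in 3-methylfuran controls and 68.3, 54.1 and 47.1 CPM at 3-methylfuran 0.02, 0.075 and 1.0. Furan groups share their controls, as do the 3-methylfuran groups, so these values are not independent of each other. Edem1 had medians of 283, 434, 637, 538 and 302 CPM from furan control to furan 2.0 and of 299, 266, 210.1 and 162 CPM from 3-methylfuran control to 3-methylfuran 1.0. For both genes the highest furan dose was closer to its controls than the lower doses were.

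The lowest dose group of each experiment was also set in place of the controls, a comparison added after the data were seen. The 83 genes were chosen by their calls against the controls and the treated rats are the same, so smaller values with another baseline are a description and no test of the opposition. With that baseline 5 of the 83 were still called in opposite directions, and 9 other genes were. Both effects kept their sign for 77 of the 83. The furan effect changed sign for 4, Lpin1 (-0.19) and Ppp1r3c (-0.14) among them, and the 3-methylfuran effect for 2. The difference kept its sign for all 83 and was called for 53 (63.9%), beside 2682 with the same sign and 1665 called (60.9%) of all 2733 genes called for the difference. The median difference of the 83, signed by its direction against the controls, was 0.64 in place of 1.10. The same median was 0.23 in place of 0.60 for the furan effect and 0.38 in place of 0.50 for the 3-methylfuran effect. Of the glucocorticoid-responsive list 1 difference was then called, with a median of 0.12. Of the furan effects of that list 0 were called, with a median of -0.21 in place of 0.35. Of the ATF4 and unfolded protein response list 10 were called higher and 2 lower, with a median of 0.36. Over all genes 2376 differences were called, while the furan effect was called for 182 genes.

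**Figure D5:**
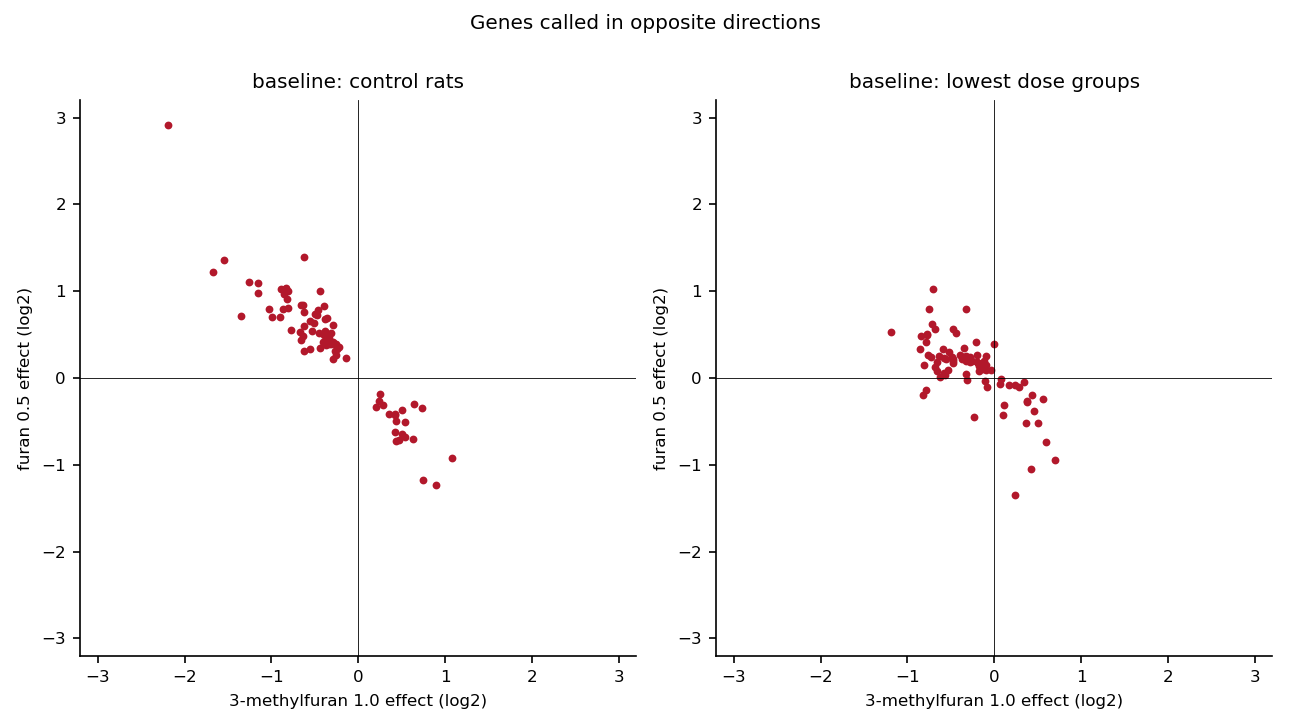
Furan 0.5 effect (vertical) against 3-methylfuran 1.0 effect (horizontal), log2, for the 83 genes called in opposite directions, with the control rats as baseline (left) and with the lowest dose group of each experiment as baseline (right). At right 77 of the 83 points are still in the upper left or lower right, and Lpin1 (-0.19 and -0.82) and Ppp1r3c (-0.14 and -0.79) are among those in the lower left.

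Genes of the circadian clock moved in both arms beside the genes above, and their part in those results was not tested. Of 20 tested, 4 were called higher and 6 lower at furan 0.5 (2.53% and 2.51% of all genes). At 3-methylfuran 1.0, 4 were higher and 9 lower (21.2% and 22.8% of all genes). The difference was called higher for 3 and lower for 3 (12.5% and 10.5% of all genes). Its median was 0.04, in a range from -1.78 to 2.07. With the lowest dose groups as baseline, 1 furan effect was called higher and 0 lower, and 4 3-methylfuran effects higher and 5 lower. The repressor Nr1d1 had 8.43, 15.2 and 32.2 CPM as lowest, median and highest value at furan 0.5, against 2.31, 3.12 and 7.32 CPM in furan controls, and 8.31, 34.5 and 41.9 CPM at 3-methylfuran 1.0, against 4.99, 7.13 and 16.1 CPM in 3-methylfuran controls. The furan groups were apart and the 3-methylfuran groups overlapped. It rose in both arms (2.22 and 1.92), with a difference of 0.29 ± 0.49. Per3 and Dbp, output genes of the clock, rose at 3-methylfuran 1.0 alone (2.35 and 1.57), and their differences of -1.78 and -1.51 were called. Cry2, a clock repressor, fell at furan 0.5 alone (-0.68), and its difference of -0.93 was called. The hour at which the livers were taken is not given in the sources used here.

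Few genes were moved mainly in the furan arm. Fkbp5, a cochaperone of the glucocorticoid receptor that its hormone induces, had 27.03, 31.04 and 85.7 CPM as lowest, median and highest value at furan 0.5, against 10.7, 12.4 and 14.8 CPM in furan controls. It had 14.96, 17.4 and 19.02 CPM at 3-methylfuran 1.0, against 12.1, 19.02 and 27.1 CPM in 3-methylfuran controls. The furan groups were apart and the 3-methylfuran groups overlapped. The effects were 1.97 and -0.15, and the difference 2.12 ± 0.42 (edgeR adjusted p = 0.000134). Zfp354a, a zinc finger gene, had effects of 2.04 and -0.75 and a called difference of 2.79. The medians of both genes were also above the furan controls at the other furan doses, so neither shift was particular to furan 0.5. Fkbp5 had medians of 21.2, 50.1 and 40.9 CPM at furan 0.03, 0.12 and 2.0. Zfp354a had 107, 129 and 49.8 CPM, against 119 CPM at furan 0.5 and 29.9 CPM in furan controls. All furan groups share these controls.

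Genes called the same way in both arms included some that were close in size and some that were not. Gpat3, which starts triglyceride synthesis, rose by 2.22 at furan 0.5 and 2.10 at 3-methylfuran 1.0, and the difference of 0.12 had a 95% interval of -0.88 to 1.12. Bhlhe40, a repressor tied to the clock, fell in both arms (-1.26 and -1.34, interval of the difference -0.70 to 0.87). Cd24, a surface glycoprotein of progenitor cells, had no overlap in either arm: 1.75, 2.46 and 4.61 CPM at furan 0.5 against 0.732, 1.17 and 1.65 CPM in furan controls, and 2.30, 2.96 and 4.801 CPM at 3-methylfuran 1.0 against 0.645, 0.932 and 1.18 CPM in 3-methylfuran controls. Its effects were 1.16 and 1.81, and the difference of -0.65 (interval -1.28 to -0.03) was not called (edgeR adjusted p = 0.121). Prr32, a proline-rich protein gene, also had no overlap in either arm, but its effects of 2.26 and 4.46 differed by a called -2.20. L1td1, Sidt1, Spsb4 and Mt1m were the next most raised in both arms, and Pparg and Mid1ip1 fell in both. The p53 target Ccng1 was called at 3-methylfuran 1.0 (0.34) and not at furan 0.5 (0.36, edgeR adjusted p = 0.0720), and the interval of its difference, -0.33 to 0.35, lies inside 1.5-fold. Mmp12, a macrophage elastase, was called in both arms (3.26 and 3.15), but its furan mean rests on 2 rats at 23.6 and 26.1 CPM, only 3 of 7 rats were above the median of their controls, and the interval of the difference was -3.08 to 3.31. Without the higher of the 2 rats its furan effect was 2.55.

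Proteasome subunits were a list with little difference. The 95% interval lay inside 1.5-fold for all 29 tested, and the median difference was -0.10. By edgeR 4 were called lower, and 22 under scaling by library totals (median -0.28).

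Some of the largest differences involved groups whose rats varied widely among themselves. A1bg, a plasma protein gene tied to growth hormone in rodents, had the largest negative difference of all (-7.70 ± 1.84, edgeR adjusted p = 0.00140). It had 0.181, 0.405 and 0.694 CPM as lowest, median and highest value at furan 0.5, against 0.385, 21.8 and 58.7 CPM in furan controls, and 0.212, 0.834 and 1.67 CPM at 3-methylfuran 1.0, against 0, 0.215 and 0.709 CPM in 3-methylfuran controls. The spread was in the furan controls. Cyp2c12, the female-predominant steroid hydroxylase, had 14.7, 19.9 and 27.4 CPM at furan 0.5, against 10.8, 46.1 and 85.2 CPM in furan controls, and 61.2, 103 and 142 CPM at 3-methylfuran 1.0, against 9.83, 14.6 and 19.6 CPM in 3-methylfuran controls. Its 3-methylfuran groups were far apart (effect 2.78), its furan effect of -1.09 was not called, and the difference was -3.87 ± 0.53 (edgeR adjusted p = 2.11e-07). Cish, a feedback inhibitor of cytokine signalling, and the growth factor gene Myc had effects of -2.27 and 2.52 and of -0.67 and 2.38. Their 3-methylfuran effects and differences were called and their furan effects were not. Without furan 0.5 rat 72, the only high one, the furan effect of Cish was called (-3.73) and its difference was -6.25. Without the 3-methylfuran 1.0 rat with the highest level (38.2 CPM) the 3-methylfuran effect of Cish was no longer called (2.22, edgeR adjusted p = 0.0680).

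Of 33 extracellular matrix genes tested, 2 were called higher at furan 0.5 (median 0.28), and 2 higher and 4 lower at 3-methylfuran 1.0 (median -0.01). The difference was called higher for 4 (Col18a1, Fn1, Eln and Adamtsl2), a share near the 12.5% of all genes. It was lower for 0 by edgeR, DESeq2, limma-voom or at an unadjusted p under 0.05. The call for Col18a1 was borderline (0.25, edgeR adjusted p = 0.0460). That call was lost under 6 other settings, and without 1 rat in 20 of 31 repeats. Col1a1, a chain of type I collagen, had 6.38, 9.07 and 88.6 CPM at furan 0.5, against 4.69, 9.27 and 18.7 CPM in furan controls, and 3.17, 4.901 and 9.58 CPM at 3-methylfuran 1.0, against 4.72, 6.90 and 8.51 CPM in 3-methylfuran controls. The groups overlapped in both arms, with 1 furan rat far above the rest, and the difference of 1.57 was not called (edgeR adjusted p = 0.114). The lipogenic enzyme Fasn (difference 1.18, adjusted p = 0.101) and the desaturase Scd (1.27, 0.425) were not called for the difference.

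At the next furan dose, 2.0 mg/kg body weight per day, fewer genes differed from 3-methylfuran 1.0. The furan 2.0 effect was called for 5851 genes (49.2%; 3122 or 26.3% higher and 2729 or 23% lower) and differed from the 3-methylfuran 1.0 effect for 933 (7.85%), with the furan effect above for 4.59% of genes and below for 3.26%. These comparisons share their controls with the ones above and are given side by side only. The furan 2.0 median was 0.70 for the NRF2 list, 0.69 for DNA replication, 1.48 for mitosis, -0.55 for the P450 genes and -0.32 for the ATF4 and unfolded protein response list. The corresponding 3-methylfuran 1.0 medians were 0.48, 0.60, 1.54, -0.41 and -0.43, and the furan 0.5 medians 0.00, 0.14, 0.38, -0.15 and -0.02. Gstp1 had log2 effects of 0.53 at furan 0.5, 3.48 at furan 2.0 and 3.68 at 3-methylfuran 1.0. Of the 2274 genes called only for 3-methylfuran 1.0 and for the difference, the furan 2.0 effect was called in the 3-methylfuran direction for 1501 and in the other for 53. Of the 83 opposed genes it was called in the 3-methylfuran direction for 2, in the furan 0.5 direction for 25 and not called for 56. Zbtb16 was among the 25 (2.62), while Lpin1 (0.17), Nr1i2 (0.15) and Edem1 (0.21) were not called at furan 2.0.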

How the data were processed

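Liver mRNA counts of 70 rats were used. Per the labels' protocols, RNA was extracted with miRNeasy from frozen tissue, and libraries were made with TruSeq Stranded mRNA (3-methylfuran) or the later Stranded mRNA prep kit (furan). Tools named by the submitters' processing notes are featureCounts 2.0.0, STAR 2.7.1a and DESeq2 1.26.0, with the genome build Rnor 6.0. How multimapping reads and strand were treated in counting, and which annotation release was used, is not given in the sources used here. Raw read counts, 1 column per run, are what the authors deposited, without normalization. The authors' deposited comparison tables, which give a signed fold change (furan), a ratio or fold (3-methylfuran) and an adjusted p-value per dose, served only to pair gene IDs with symbols.

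The 2 runs of a furan rat or 3 runs of a 3-methylfuran rat were summed. They differed by about sampling noise (chi-square per degree of freedom 1.0 to 1.07). Rats are the replicates. Genes passed filterByExpr (minimum count 10) in each experiment. A fit of 70 rats with 1 coefficient for each of 9 groups used edgeR 4.0.16 in R 4.3.3 (TMM, robust quasi-likelihood). Effects and their difference are contrasts of that fit, so that a constant shift between kits cancels. P-values were adjusted over all 11885 genes. SE is the log2 estimate over the square root of F, and 95% intervals use the t distribution. CPM are scaled by TMM. TMM factors were 0.965 to 1.093 at furan 0.5, 0.924 to 1.006 in furan controls, 0.995 to 1.165 at 3-methylfuran 1.0 and 0.871 to 0.928 in 3-methylfuran controls. The procedure was tested on simulated data.

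The comparison, the 27 gene lists and the 11 marker lists of cell types (637 of 812 symbols tested) were chosen with earlier results of these data known, and describe rather than test. The text names genes from a written rule: the largest and most significant differences in each direction, the largest effects shared by or opposed between the arms, called and most abundant list members, and 26 followed genes. This gave 271 genes, and Xbp1 was added outside it after its values were seen. Members listed beside a count, and those given in full, were also picked with their values known. Alternatives used DESeq2 1.42.0 and limma 3.58.1. Some genes are not reported here.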

Additional observations from a re-analysis of the deposited data

Results flagged for a closer look

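Single rats stood apart from the rest of their group in 13 of 132 groups of values examined, by the gap to the nearest rat over the group's range. Chance gives about 1 in 20 for independent values from a normal distribution. These are CPM without a log, and the genes share the same rats, so the count cannot be read against that rate. At 3-methylfuran 1.0 1 rat had 670.0 CPM of Gstp1 (the others 23.5 to 110), 72.5 CPM of Abcc3 (17.6 to 36.5), 62.1 CPM of Lpin1 (37.9 to 49.1) and 69 CPM of Myc (17.5 to 34.6), and another had 5.91 CPM of Ficd (8.66 to 10.4). At furan 0.5 1 rat each had 11.9 CPM of Phgdh (1.86 to 5.81), 78.9 CPM of Creld2 (26.3 to 47.1), 33.7 CPM of Cish (2.12 to 2.82) and 88.6 CPM of Col1a1 (6.38 to 34.9). Among furan controls 1 rat had 7.32 CPM of Nr1d1 (2.31 to 4.60) and another 21.1 CPM of Ficd (9.24 to 13.9). Among 3-methylfuran controls 1 rat each had 16.1 CPM of Nr1d1 (4.99 to 9.33) and 31.2 CPM of Ficd (11.7 to 19.3).

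The effects of the compounds differed, by the test of the difference itself, with opposite signs for 8 genes of those named for it. The log2 difference was 5.11 for Zbtb16, 2.91 for Lpin1, 2.37 for Ankrd33b, 2.26 for Nr0b2, 2.14 for Klf13, 1.93 for Ficd, -2.0 for Zfp608 and -2.13 for Hhex. With the lowest dose groups as baseline the differences of Ankrd33b (1.33), Ficd (1.34), Zfp608 (-1.65) and Hhex (-1.59) were still called, and those of Zbtb16 (1.73), Lpin1 (0.63), Nr0b2 (0.65) and Klf13 (0.64) were not.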

How the results depend on the processing

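The 2733 differences came to between 1940 (first run of each rat only) and 3609 (scaling by library totals) under other settings, and to between 2478 and 2877 without 1 rat; these include DESeq2 (2813) and limma-voom (2647). Of the 3609 under library totals, 1877 were among the 2733. The 3-methylfuran calls came to between 3970 and 6933, and to between 4895 and 5266 without 1 rat. Of the 6933, which were under library totals, 3493 were among the 5225. The furan calls fell to 395 with no filter beyond 1 count and to 382 with the first run only, against 599. Without 1 rat they lay between 414 (without furan 0.5 rat 71) and 612. Genes called in opposite directions fell to 50 with no filter, against 83, and lay between 53 (again without rat 71) and 97 without 1 rat. Genes called in the same direction fell to 145 with no filter and to 147 with the first run, against 261, and lay between 165 and 267 without 1 rat, the lowest without furan 0.5 rat 63; without furan control rat 7 there were 172. Under library totals the furan calls were 672, of which 445 were among the 599. Opposite directions were then called for 67 genes, 34 of them among the 83. The same direction was called for 329, 130 of them among the 261. With the lowest dose groups as baseline, an alternative added after the data were seen, the furan calls were 182, the opposed genes 14 (5 of the 83 and 9 others) and the genes called in the same direction 78. The cause was not tested, beyond fewer reads in the first run and more genes tested with no filter. Of 219 named genes called for the difference, 40 lost the call under library totals, 32 with no filter and 54 with the lowest-dose baseline. In these settings 0 were called in the opposite direction, and changes of sign among the lost calls were not counted. No paired analysis was possible because the groups share no replicate numbers.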

Other observations

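The difference was also called for genes outside the lists followed above. P4ha2, a collagen prolyl hydroxylase, had 24.1, 26.1 and 28.9 CPM as lowest, median and highest value at furan 0.5, against 22.7, 26.2 and 30.7 CPM in furan controls, and 13.9, 15.97 and 19.2 CPM at 3-methylfuran 1.0, against 26.2, 30.3 and 36.0 CPM in 3-methylfuran controls. The 3-methylfuran groups were apart and the furan groups covered the same range (difference 0.95 ± 0.10, edgeR adjusted p = 1.33e-09). Car2, a cytosolic carbonic anhydrase, had log2 effects of 0.33 at furan 0.5 and 2.63 at 3-methylfuran 1.0, with a called difference of -2.30. Nox4, an oxidase that makes hydrogen peroxide, had -0.29 and -2.54, with a called difference of 2.24.

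Lyz2, a macrophage lysozyme, had a difference of 1.63 that stood near the threshold (edgeR adjusted p = 0.0418) and was lost without 1 rat in 13 of 31 repeats, with the lowest value of 0.96 without furan 0.5 rat 63. Of 15 macrophage markers tested, 2 (Lyz2 and Cd14) had a called higher difference, a share near the 12.5% of all genes. Of 12 stellate cell markers edgeR, DESeq2 and limma-voom called 0 (2 higher at an unadjusted p under 0.05), with a median difference of 0.47.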
